A study of Mus musculus with 24 samples.

Results

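Leukaemia cells carrying the MLL-AF9 fusion were compared between 3 libraries whose cells had floxed Arid1b alleles and 3 libraries whose cells had unfloxed alleles, all of them also carrying VavCre. These 6 libraries were taken by their titles from a series of 24, and their messenger RNA was compared across 14099 tested genes. The control cells are described as Arid1b +/+ VavCre+ and the floxed cells as Arid1b fl/fl VavCre+, each with MLL-AF9, so that both the Cre and the fusion oncogene were present in every library. Recipient mice were transplanted with such cells and were moribund when their marrow was taken, and the titles of these libraries also carry the mark 2ary, which the labels do not explain. VavCre is a Cre recombinase driven by regulatory sequences of Vav1, which are active in blood cells from early in development, so that deletion is not limited to the leukaemia or to adult cells. The pIpC injections described for the MxCre sets of the same series were for those sets. The labels give no age or sex of the mice and are silent on whether libraries of one group came from separate mice or leukaemias. P-values therefore measure the spread between libraries of the same group, estimated over all 24 libraries of the series, which may be partly technical.

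ARID1B is a large DNA-binding subunit of the BAF form of the SWI/SNF chromatin remodelling complexes, which use ATP to move or evict nucleosomes. A BAF complex holds either ARID1A or ARID1B, while the related PBAF form holds ARID2 in their place. MLL-AF9 leukaemias in mice resemble myeloid progenitors and express the HOXA genes and Meis1. Their cells can carry features of granulocytes, monocytes or dendritic cells to differing degrees.

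Library totals ran from 17093477 to 23472856 counts, and the 10 most abundant genes took 3.11% to 3.84% of them. Levels below are CPM, read counts relative to the TMM-scaled depth of the library, listed in the order control 1, 2 and 3 and floxed 1, 3 and 4. Markers of the cells named in the labels were present: Hoxa9 was at 152, 150.0 and 426 CPM in the controls and 269, 246 and 210.1 CPM in the floxed libraries, and the myeloid enzyme gene Mpo at 366, 986 and 6565 and 253, 362 and 1589 CPM. Mpo was highest in control 3, and its groups overlapped. Control 3 stood apart from the other controls: its Pearson correlation with them across genes, on log2 CPM, was 0.927 and 0.920, against 0.975 between controls 1 and 2 and 0.987 between floxed 3 and 4. Genes of the Y chromosome, such as Kdm5d at 50.9 to 56.9 CPM, were read in all 3 controls, and Kdm5d was at 0 in all 3 floxed libraries. Xist, the RNA that coats an inactive X in female cells, was at 5.17, 7.89 and 66.6 CPM in the controls and 3075, 3095 and 2782 CPM in the floxed libraries. Sex of the cells and genotype therefore cannot be told apart within these 6 libraries. Xist and the Y-linked genes did not pass the test (edgeR adjusted p of 0.0539 for Xist). An alternative model that adds whether a library has Y-linked reads is called the Y term below. Its size is estimated from the other sets alone, because the libraries of each group here are alike in this respect. The term is aligned with genotype in this set, so it adds the error of its own estimate to the contrast. A call can therefore be lost although the fold change stays as large. Such losses do not measure the part of sex.

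A gene was called when its Benjamini-Hochberg adjusted p in edgeR's quasi-likelihood test, over all tested genes, was under 0.05. By this rule 926 genes were called, or 6.57% of those tested, 496 of them higher in the floxed libraries (3.52%) and 430 lower (3.05%). The genes that rose did so by more: their median log2 fold change was 2.48 against -1.44 for those that fell, and 209 of them changed by over 8-fold against 83. Among the genes that rose, 122 had a control mean below 1 CPM, and among those that fell, 87 had a floxed mean below 1 CPM. All 3 floxed libraries lay above every control for 2292 genes (16.3%) and below every control for 2276 (16.1%). The number of genes called depended on single libraries. It was 65 without control 1, 734 without control 2, 403 without control 3, 728 without floxed 1, 62 without floxed 3 and 305 without floxed 4, while the Y term left 101. Of the 926 genes, 63, 619, 353, 606, 62 and 304 were called again without control 1, control 2, control 3, floxed 1, floxed 3 and floxed 4 in turn, an order kept for such series below, and 82 with the Y term.

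**Figure D1:**
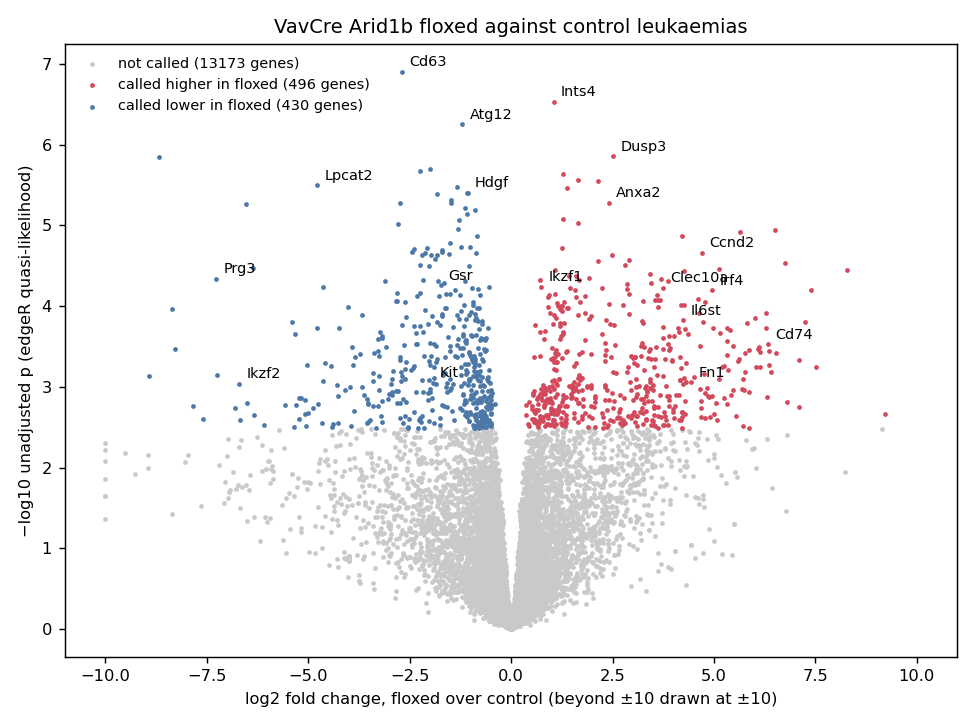
Every tested gene by its log2 fold change, floxed over control (x axis), and the −log10 of its unadjusted edgeR p (y axis), with the 496 genes called higher in red, the 430 called lower in blue and all others in grey. Cd63, Ints4 and Atg12 have small p with moderate fold changes, while Cd74, Ikzf2 and Prg3 lie far out with larger p.

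Arid1b itself (chromosome 17, 4994297 to 5347656, GRCm38) was read in every library. Its level was 219.6, 186 and 367 CPM in the controls and 139.6, 184 and 169 CPM in the floxed libraries. Each floxed library lay below each control, but floxed 3 was almost level with control 2, and control 3 was well above the other controls. The log2 fold change was -0.65 ± 0.45 (SE) and did not pass the test (edgeR adjusted p 0.407). Without control 3 it was -0.27 (edgeR adjusted p 0.854). The labels do not name the deleted exons, and exons outside the deleted part can still be counted, so the gene's level is no check of the deletion. Arid2, the subunit of PBAF, was at 308, 260.2 and 402 CPM in the controls and 271, 195 and 165 CPM in the floxed libraries, with overlapping groups (edgeR adjusted p 0.381). Arid1a, which takes the same place in BAF as Arid1b, was at 712, 630.3 and 563 and 427, 580.3 and 551 CPM (edgeR adjusted p 0.436).

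The other SWI/SNF genes showed no call. None of the 14 ATPase and core subunit genes passed, and none of the 11 tested genes of BAF, PBAF and ncBAF subunits. Of all tested genes 6.57% were called, a share at which lists this short can hold no call. The median log2 fold changes of these lists were -0.07 and -0.16, against -0.06 over all tested genes. Ss18, a core BAF subunit gene, had the smallest p of the core list, at 135, 116 and 82.6 and 81.3, 81.1 and 82.9 CPM, with its groups overlapping (edgeR adjusted p 0.117). Phf10, a PBAF subunit gene, had the smallest p of the other list and differed little in level, at 73.1, 74.8 and 67.1 and 61.7, 58.5 and 61.8 CPM (edgeR adjusted p 0.213).

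Of the genes that fell, the 12 with the smallest p were taken among those with a gene name other than a predicted one, a mean of at least 5 CPM and groups that did not overlap. Cd63 (chromosome 10, 128896231 to 128912822), a tetraspanin of late endosomes, lysosomes and granules, had the smallest p of all tested genes. It was at 438, 427 and 312 CPM in the controls and 65.7, 45.3 and 71.9 CPM in the floxed libraries. Its lowest control was over 4 times its highest floxed library, and its log2 fold change was -2.69 ± 0.33 (edgeR adjusted p 0.00177). Lpcat2 (chromosome 8, 92855313 to 92919279), which makes platelet-activating factor, was at 81.2, 47.6 and 64.6 CPM in the controls and almost silent in the floxed libraries, at 3.21, 1.2 and 2.64 CPM (log2 fold change -4.78 ± 0.73, edgeR adjusted p 0.00360). Hdgf, a nuclear growth factor, was at 693, 680.2 and 742 and 369, 300.2 and 326 CPM and so fell by about as much in every floxed library. Stxbp5, a tomosyn that restrains SNARE-driven secretion, was at 279, 233 and 262 and 72.5, 67.6 and 76.7 CPM. Neither gene varied much within a group, and their log2 fold changes were -1.09 and -1.83 (both edgeR adjusted p 0.00360). Atg12, a conjugated protein of autophagy, was at 173, 126 and 155 and 60.9, 64.1 and 72.7 CPM (log2 fold change -1.2, edgeR adjusted p 0.00264). Acp2, a lysosomal acid phosphatase, fell from 70.3 to 33.7 CPM on average, and Pcgf5, a subunit of Polycomb repressive complex 1, from 49.5 to 19.5 CPM (both edgeR adjusted p 0.00360). The remaining 5 of this group of 12 were Mctp1, Atxn1, Stambpl1, Gbp7 and Tmx4, with log2 fold changes of -2.0, -2.25, -1.49, -2.74 and -1.49 and edgeR adjusted p of 0.0036 each. All 12 stayed called in each of the 6 fits without 1 library, and 11 of 12 with the Y term, where Gbp7 had an edgeR adjusted p of 0.0548.

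Among the genes with the smallest p that rose, Ints4 (chromosome 7, 97480951 to 97541398), a subunit of the Integrator complex that processes small nuclear RNAs, came first. It was at 61.9, 67.4 and 64.8 CPM in the controls and 127, 145 and 129.7 CPM in the floxed libraries, a doubling with little spread in either group (log2 fold change 1.05 ± 0.14, edgeR adjusted p 0.00207). Dusp3, a phosphatase that acts on MAP kinases, was at 9.59, 12.4 and 15 and 48.9, 98.4 and 65.2 CPM (log2 fold change 2.52, edgeR adjusted p 0.00360). Anxa2, a calcium-dependent protein of membranes, was at 99.4, 129.5 and 105 CPM in the controls and 601, 580.0 and 599.8 CPM in the floxed libraries. The 3 floxed values of Anxa2 lay within 4% of each other, and each was over 4 times the highest control (log2 fold change 2.41 ± 0.38, edgeR adjusted p 0.00360). Limd1, a LIM domain scaffold, rose from 32.4, 52.8 and 68.7 to 124, 188 and 173 CPM, and control 1 was the lowest and control 3 the highest control. Fgd2, an exchange factor for the GTPase Cdc42, was at 56.3 CPM on average in the controls and 145 CPM in the floxed libraries. Bin1, which bends membranes, was at 30.5 and 95.5 CPM. Chml, Cnksr3, Neurl2, Cped1 and Nos1ap completed the group with log2 fold changes of 1.28, 1.29, 1.25, 2.91 and 2.13, beside Ccnd2, described below. Of these genes, 9, 12, 12, 12, 11 and 12 stayed called in the 6 fits without 1 library, and 8 with the Y term. The omissions lost Ccnd2 without control 1, Cped1 without control 1 and Nos1ap without control 1 and without floxed 3, and the Y term lost Limd1, Bin1, Neurl2 and Cped1.

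**Figure D2:**
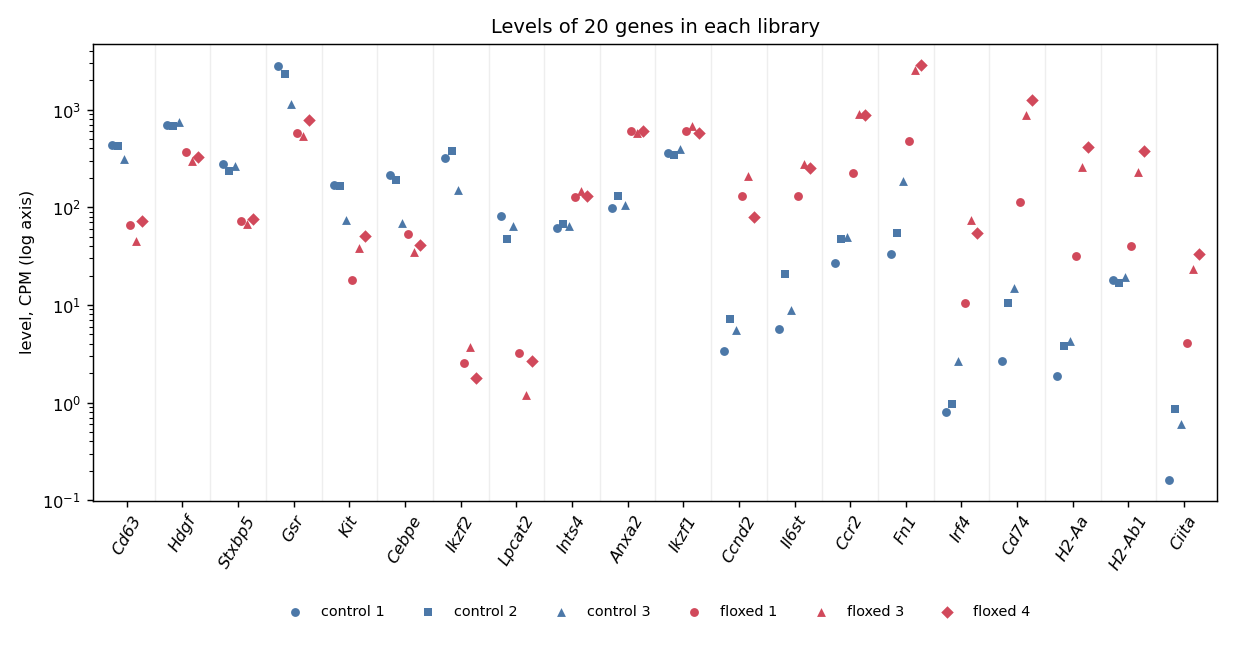
Level of 20 genes in each library, in CPM on a log axis (y axis), with controls in blue and floxed libraries in red and a marker shape for each library. Genes to the left fell and those to the right rose. Anxa2 spans 580 to 601 CPM over the floxed libraries, while the MHC class II genes and Irf4 are lower in floxed 1 than in floxed 3 and 4.

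Several abundant genes rose. Mbnl1, a regulator of alternative splicing, had the highest mean level over the 6 libraries of the genes named for a rise, at 893, 1225 and 759 CPM in the controls and 2172, 2746 and 2556 CPM in the floxed libraries (log2 fold change 1.38, edgeR adjusted p 0.0108). Fn1, the matrix protein fibronectin, went from 32.9, 54 and 185 to 478, 2539 and 2883 CPM (log2 fold change 4.44 ± 1.12, edgeR adjusted p 0.0274). It was over 5 times lower in floxed 1 than in floxed 3 and 4, and control 3 was the highest control. Mpeg1, a pore-forming protein of phagocytes, was at 182, 409.7 and 232 and 1451, 2002 and 2103 CPM (edgeR adjusted p 0.0444). Cybb, the NADPH oxidase subunit that makes superoxide in phagocytes, was at 49.7, 193 and 69.1 and 349, 1117 and 1110.3 CPM (edgeR adjusted p 0.0451). Both groups of Cybb were uneven, with control 2 the highest control and floxed 1 the lowest floxed library. Ahnak, a giant scaffold protein, Lsp1, an actin-binding protein of leukocytes, and Slc44a2, a choline transporter, had log2 fold changes of 3.56, 3.25 and 1.69 (edgeR adjusted p 0.0172, 0.0469 and 0.0348). Of the 12 abundant genes that rose by at least 2-fold, which include Cd74, Nfkb1 and Ccr2 described below, 0, 9, 5, 9, 0 and 5 stayed called in the 6 fits without 1 library, and 0 with the Y term.

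The genes that fell by at least 2-fold were also ranked by level. Gsr, glutathione reductase, was at 2797, 2345 and 1135 CPM in the controls and 577, 536 and 782 CPM in the floxed libraries, and control 3 was the control nearest to the floxed libraries (log2 fold change -1.73, edgeR adjusted p 0.00963). Lta4h, which makes leukotriene B4, was at 928, 862 and 905 and 369.9, 302 and 415 CPM, with little spread among the controls (log2 fold change -1.31, edgeR adjusted p 0.0154). Alas1, the first enzyme of haem synthesis, was at 874, 801 and 468 and 334, 289.9 and 325 CPM (edgeR adjusted p 0.0320). Here too control 3 was the lowest control. Chd7, a chromatin remodeller, was at 439.9, 295 and 388 and 137, 124 and 126 CPM (log2 fold change -1.54, edgeR adjusted p 0.00664). Sort1, a sorting receptor, Dstn, an actin-severing protein, Syne1, which links the nucleus to the cytoskeleton, and Csgalnact2, an enzyme of chondroitin sulfate, fell by 1.71, 1.26, 2.41 and 1.14 on the log2 scale (edgeR adjusted p 0.0116, 0.0174, 0.0217 and 0.00389). Gda, guanine deaminase, and Ankrd28 fell by 1.09 and 1.13 (edgeR adjusted p 0.0430 and 0.0415). Of this group, which has 12 genes with Cd63 and Hdgf, 4, 9, 9, 8, 4 and 9 stayed called in the 6 fits without 1 library, and 3 with the Y term.

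MHC class II molecules present peptides on the surface of dendritic cells, B cells and activated monocytes. Their genes, with those of the invariant chain Cd74 and the peptide loaders, are switched on by the coactivator Ciita, which acts through proteins bound at conserved boxes just upstream of each start. These include the Y box, whose core is read as GATTGG, or CCAATC on the other strand. The promoters of the 3 called genes of the list that the RefSeq table for GRCm38.p6 holds are shown because these genes rose together. Each run is the 250 bases before the start, 5′ to 3′ on the gene's strand, with every match to GATTGG or CCAATC in capitals. H2-Aa is on the minus strand at chr17:34287824-34288073. H2-Eb1 is on the plus strand at chr17:34305617-34305866. H2-DMb2 is on the plus strand at chr17:34144999-34145248, for a start that lies inside the annotated gene.
H2-Aa: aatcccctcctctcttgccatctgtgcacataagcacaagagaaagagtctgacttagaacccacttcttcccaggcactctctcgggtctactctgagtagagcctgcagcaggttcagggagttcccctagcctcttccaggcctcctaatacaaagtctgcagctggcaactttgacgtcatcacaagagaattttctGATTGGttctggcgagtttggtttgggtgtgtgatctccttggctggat
H2-Eb1: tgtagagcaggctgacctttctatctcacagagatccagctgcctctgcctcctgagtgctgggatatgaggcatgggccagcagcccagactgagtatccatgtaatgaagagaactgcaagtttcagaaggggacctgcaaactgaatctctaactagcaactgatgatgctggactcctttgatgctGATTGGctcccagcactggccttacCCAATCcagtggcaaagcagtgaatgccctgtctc
H2-DMb2: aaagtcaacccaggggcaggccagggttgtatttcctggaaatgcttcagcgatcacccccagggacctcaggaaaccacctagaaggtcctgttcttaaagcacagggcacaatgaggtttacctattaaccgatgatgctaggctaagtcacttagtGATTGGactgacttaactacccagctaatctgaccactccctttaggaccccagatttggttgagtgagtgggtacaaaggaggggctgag
The match begins 49 bases before the start in H2-Aa, 60 and 35 bases in H2-Eb1 and 91 bases in H2-DMb2. A match to either form was present in 14.6% of the 32851 promoters of the table, and in 10 of the 12 list members it holds, called or not. H2-Ab1, Ciita, Cd74, March1 and Rfxap were not in the table.

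Of the 17 MHC class II presentation genes, 7 rose and none fell, against 3.52% and 3.05% of all tested genes, and the median log2 fold change of the list was 2.32. All 3 floxed libraries lay above every control for 12 of the 17, against 16.3% of all tested genes. Cd74 was at 2.69, 10.3 and 15.1 CPM in the controls and 114, 883 and 1252 CPM in the floxed libraries (log2 fold change 6.32 ± 1.42, edgeR adjusted p 0.0166). The alpha chain gene H2-Aa was at 1.88, 3.77 and 4.31 and 31.7, 259 and 413 CPM (log2 fold change 6.14 ± 1.48, edgeR adjusted p 0.0216). The beta chain gene H2-Eb1 was at 1.88, 4.0 and 4.97 and 22.3, 198 and 362 CPM (edgeR adjusted p 0.0300). In all 3 genes floxed 1 was over 7 times lower than the other floxed libraries, and still above every control. H2-Ab1, the other beta chain gene, started from a higher control level, at 17.9, 16.8 and 19.3 CPM, and reached 39.8, 232 and 376 CPM (edgeR adjusted p 0.0248). Ciita showed the same order among the floxed libraries, at 0.162, 0.857 and 0.609 and 4.06, 23.1 and 33 CPM (log2 fold change 5.2, edgeR adjusted p 0.0216). H2-DMb2, a chain of the peptide loader, was even over the floxed libraries, at 1.35, 2.69 and 2.89 and 12.9, 10.6 and 11.2 CPM (edgeR adjusted p 0.0197). The seventh call was March1, a ubiquitin ligase that removes class II molecules from the surface, at 4.2, 10.9 and 6.7 and 45.3, 102 and 94.7 CPM (edgeR adjusted p 0.0342). It was named because its value completed the list. Rfx5, Rfxap and Rfxank, which encode the factor that binds the X box beside the Y box, did not pass, with log2 fold changes of -0.38, -0.03 and -0.005.

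Dendritic cell genes rose in 10 of 20 cases and fell in none, against 3.52% and 3.05% of all tested genes, with a median log2 fold change of 3.17. Irf4, a transcription factor of dendritic cells and plasma cells, was at 0.808, 0.971 and 2.69 CPM in the controls and 10.4, 74.4 and 54.4 CPM in the floxed libraries (log2 fold change 4.95 ± 0.97, edgeR adjusted p 0.00963). The lectin gene Clec10a was at 1.78, 2.63 and 1.27 and 16, 35.8 and 24.4 CPM (edgeR adjusted p 0.00963). Clec9a, a receptor for dead cells on cross-presenting dendritic cells, was at 0.431, 0.800 and 0.152 and 2.6, 37.3 and 15.7 CPM, and Batf3, a factor those cells need, at 0.108, 0.0571 and 0.101 and 0.661, 2.66 and 2.28 CPM (edgeR adjusted p 0.0160 and 0.0202). Floxed 1 was the lowest floxed library for each of these 4 genes. Itgax, the integrin chain CD11c, and Naaa, a lipid hydrolase, rose by 3.39 and 4.16 on the log2 scale (edgeR adjusted p 0.0179 and 0.0189). Flt3, the receptor whose ligand drives dendritic cell growth, was at 119.5, 229 and 22.5 CPM in the controls and 995, 720.0 and 504 CPM in the floxed libraries and did not pass (edgeR adjusted p 0.267). Xcr1, a receptor of the same cells as Clec9a, stayed below 1 CPM in every library. Summed over 6 dendritic markers, levels were 6.30, 13.9 and 8.42 CPM in the controls and 28.9, 252 and 214 CPM in the floxed libraries. B-lineage markers, of other cells with MHC class II, summed to 1.71 to 5.32 CPM in the controls and 1.56 to 3.59 CPM in the floxed libraries, with Pax5 at or below 0.152 CPM throughout. In bulk RNA a change in the number of cells of a type cannot be told apart from a change in RNA per cell. Of the 17 called genes on the antigen presentation and dendritic lists, 0, 7, 4, 16, 0 and 5 stayed called in the 6 fits without 1 library, and 0 with the Y term. The log2 fold changes with the Y term were above 0 for all of them, from 1.45 for H2-DMb2 to 5.98 for Cd74. That of Naaa was 2.01, of March1 2.07, of H2-Eb1 4.58, of Irf4 3.78 and of Clec9a 5.48 (edgeR adjusted p 0.351, 0.423, 0.274, 0.111 and 0.113). The part of sex in these changes was not tested within this set.

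Monocyte and macrophage genes rose in 4 of 27 cases, against 3.52% of all tested genes, and fell in none, with a median log2 fold change of 1.29. Ccr2, the receptor by which monocytes leave the marrow, was at 27, 47.7 and 49.97 CPM in the controls and 223, 902 and 878 CPM in the floxed libraries (edgeR adjusted p 0.0149). Cx3cr1, a receptor of patrolling monocytes, was at 2.42, 24.3 and 1.67 and 119, 348 and 309 CPM, with control 2 the only control above 3 CPM (edgeR adjusted p 0.0431). The scavenger receptor Cd163 was at 4.63, 6.29 and 9.74 and 63.2, 161 and 81.7 CPM (edgeR adjusted p 0.0179). Klf4, a transcription factor of monocytes, was at 1.4, 10.1 and 9.13 and 48.5, 183 and 141 CPM (edgeR adjusted p 0.0217). The groups did not overlap for these 4 genes, and floxed 1 was the lowest floxed library in each. Of these genes, 0, 4, 2, 4, 0 and 2 stayed called in the 6 fits without 1 library, and 0 with the Y term. The macrophage complement genes C1qa, C1qb and C1qc stayed at or below 3.45 CPM in every library and did not pass. The sum of 5 monocyte markers was 311 to 985 CPM in the controls and 1465 to 2796 CPM in the floxed libraries.

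The granulocyte lists all had a median log2 fold change below the -0.06 of all tested genes. Of 11 primary granule and promyelocyte genes, 3 fell, against 3.05% of all tested genes, and none rose, with a median log2 fold change of -0.78. Cebpe, a transcription factor of granule formation, was at 216, 191 and 68.7 CPM in the controls and 52.7, 34.7 and 40.9 CPM in the floxed libraries (edgeR adjusted p 0.0261). Gfi1, a repressor needed for neutrophils, was at 196, 158 and 344 and 55.5, 31 and 58.6 CPM (edgeR adjusted p 0.0443). Calr, the chaperone calreticulin, fell with overlapping groups, at 2912, 2491 and 1423 and 1257, 1234 and 1479 CPM (edgeR adjusted p 0.0467). Control 3 had the lowest Cebpe and Calr of the controls and the highest Gfi1. No gene of the 14 secondary and tertiary granule and neutrophil genes was called. Of these 14, 11 had a log2 fold change below 0, against 55.1% of all tested genes, with a median of -0.45. A sum of 6 mature neutrophil markers was 471 to 1795 CPM in the controls and 186 to 1581 CPM in the floxed libraries. Prg3, an eosinophil granule protein, was at 247, 121 and 7.05 CPM in the controls and 0.425, 0.709 and 1.32 CPM in the floxed libraries (log2 fold change -7.27 ± 1.38, edgeR adjusted p 0.00909). Il5ra, the interleukin 5 receptor of eosinophils, was at 6.52, 3.89 and 0 and 0, 0 and 0.0601 CPM, a single count over the floxed libraries, and called as lower (edgeR adjusted p 0.0249). Both were high in controls 1 and 2 and low or absent in control 3. They were the 2 called genes of 11 on the eosinophil, basophil and mast cell list, whose median log2 fold change was -2.51. Of the 5 genes called on these lists, Cebpe, Gfi1 and Calr stayed called in 0, 1, 2, 1, 0 and 0 cases in the 6 fits without 1 library, and Prg3 and Il5ra in 1, 2, 2, 1, 0 and 1. With the Y term Prg3 alone was called (edgeR adjusted p 0.0189).

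Calls among stem cell and MLL-fusion target genes were set beside the 6.57% of all tested genes that were called. Kit, a receptor tyrosine kinase of progenitors and mast cells, was at 168, 167 and 74.7 CPM in the controls and 18, 38 and 51.2 CPM in the floxed libraries (log2 fold change -1.93 ± 0.49, edgeR adjusted p 0.0274). Bcl11a, a transcription factor of lymphoid and dendritic progenitors, was at 0.162, 3.89 and 0.660 and 17.2, 30.3 and 21.8 CPM (edgeR adjusted p 0.0334). These were the 2 calls among 15 stem and progenitor genes, and 0, 1, 1, 1, 0 and 1 of them stayed called in the 6 fits without 1 library. Neither was called with the Y term (edgeR adjusted p 0.288 and 0.180) or from the 6 libraries alone (0.0578 and 0.0619). Cd34, Gata2 and Erg, other progenitor genes, were low in control 3 alone, at 8.42, 2.23 and 1.01 CPM, against at least 219, 76.0 and 61.9 CPM in the 5 other libraries. None of 17 MLL-fusion target and self-renewal genes was called. Among them Mef2c was at 5.33, 137 and 31.5 and 512, 631 and 512 CPM, with no overlap and a wide spread in the controls (edgeR adjusted p 0.105). Myb was at 1469, 1639.8 and 1126 and 912, 910.0 and 727 CPM, with the groups apart (edgeR adjusted p 0.0923), and Meis1 at 157, 109 and 107 and 90.8, 90.4 and 91.2 CPM (edgeR adjusted p 0.521).

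Transcription factor families were split between members. In the Ikaros family, Ikzf1 was at 360.3, 346 and 399 CPM in the controls and 598, 678 and 577 CPM in the floxed libraries, a rise of 0.74 ± 0.14 on the log2 scale (edgeR adjusted p 0.00963). Ikzf2 (chromosome 1, 69531207 to 69687351), which encodes Helios, was at 321, 376 and 152 and 2.55, 3.72 and 1.8 CPM (log2 fold change -6.7 ± 1.70, edgeR adjusted p 0.0280). The lowest control of Ikzf2 was over 40 times its highest floxed library. Among C/EBP genes, Cebpa, a factor of myeloid progenitors, was at 69.6, 121 and 116 and 173, 234 and 209.9 CPM (edgeR adjusted p 0.0175) and so rose while Cebpe fell. KLF genes rose in 3 of 12 cases, against 3.52% of all tested genes, with Klf2, a factor of quiescent lymphocytes and monocytes, at 9.48, 18.7 and 7.51 and 87.5, 157 and 116 CPM (edgeR adjusted p 0.0303) and Klf6 at 30.2, 34.8 and 30.3 and 89, 132 and 103 CPM (edgeR adjusted p 0.0333), beside Klf4. Of 21 RUNX, GATA, TAL and ETS genes, Ets1 fell, at 28.6, 41 and 74.4 and 6.66, 9.96 and 18.4 CPM (edgeR adjusted p 0.0312). On the same list Spib, a factor of B and plasmacytoid dendritic cells, and Etv3 rose, by 3.33 and 0.66 on the log2 scale (edgeR adjusted p 0.0396 and 0.0492). Irf4 was the single call among 9 interferon regulatory factor genes. Of the 11 called genes, 0, 7, 5, 8, 0 and 3 stayed called in the 6 fits without 1 library, and 0 with the Y term.

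Of 21 receptor genes for colony-stimulating factors and cytokines, 6 rose and Kit fell, against 3.52% and 3.05% of all tested genes, and the median log2 fold change was 0.80. Il6st, the shared signalling chain gp130, was at 5.6, 20.5 and 8.88 CPM in the controls and 132, 279 and 251 CPM in the floxed libraries (log2 fold change 4.24 ± 0.89, edgeR adjusted p 0.0124). Il6ra, which pairs with it to bind interleukin 6, was at 39.9, 75 and 68.8 and 151, 233 and 196 CPM (edgeR adjusted p 0.0300). Both were highest in floxed 3, and the groups did not overlap for either gene. Il10ra was at 8.89, 23.8 and 9.18 and 63.5, 182 and 172 CPM (edgeR adjusted p 0.0323), and Il4ra at 56.4, 54.5 and 65.6 and 109, 145 and 126 CPM (edgeR adjusted p 0.0228). Ifnar1 and Ifnar2, both chains of the type I interferon receptor, rose by 0.9 and 1.01 on the log2 scale (edgeR adjusted p 0.0419 and 0.0464). Ifnar2 was named after its value was seen. Of 21 interferon-stimulated genes, Oas1a and Ddx58, sensors of viral RNA, fell, at 29.6, 19.9 and 19.6 and 3.07, 6.73 and 8.71 CPM for Oas1a and 40.5, 29 and 18.9 and 3.59, 3.06 and 8.59 CPM for Ddx58 (edgeR adjusted p 0.0460 and 0.0484). Their list had a median log2 fold change of 0.10. Socs2, an inhibitor induced by cytokines, was the single call among 11 cytokine feedback genes, at 0.269, 0.171 and 0.507 and 1.51, 2.75 and 1.5 CPM (edgeR adjusted p 0.0241).

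Of 12 genes listed as feedback of MAP kinase signalling, inhibitors or targets of the pathway, 4 rose, against 3.52% of all tested genes. None fell, and the list's median log2 fold change was 1.93. Etv4, an ETS factor that is a target of the pathway, was at 0, 0.114 and 0.203 CPM in the controls and 6.38, 9.65 and 3.6 CPM in the floxed libraries (edgeR adjusted p 0.0179). Spry4, a Sprouty inhibitor, had 2 counts over the controls and 224 over the floxed libraries, at 4.49, 4.61 and 1.5 CPM (edgeR adjusted p 0.0236). Spred1 was at 9.1, 21.7 and 12.1 and 48.7, 70.7 and 47.1 CPM (edgeR adjusted p 0.0293), and Spry1 at 0.431, 1.14 and 0.507 and 2.13, 4.43 and 4.14 CPM (edgeR adjusted p 0.0389). Floxed 4 was the lowest floxed library for Etv4, Spry4 and Spred1, in contrast to the MHC class II genes. Of 21 NF-kB and inflammatory genes, 4 rose: Nfkb1, a subunit of the factor, was at 341, 367 and 159.9 and 663, 830.2 and 633 CPM (edgeR adjusted p 0.0401), and Bcl3, Birc3 and Nlrp3 rose by 1.53, 1.03 and 3.63 on the log2 scale (edgeR adjusted p 0.0294, 0.0442 and 0.0494). Their list had a median log2 fold change of 1.29. Tlr13, a sensor of bacterial ribosomal RNA, was the single call of 20 Toll-like receptor and adaptor genes, at 13.2, 14.3 and 14.8 and 56.2, 199.9 and 203 CPM (edgeR adjusted p 0.0192). Atf3 and Klf6 were the 2 calls of 18 immediate-early genes, with Atf3 at 0.377, 0.914 and 0.558 and 2.22, 10.8 and 7.15 CPM (edgeR adjusted p 0.0473). Of all 21 called genes on the signalling lists, cytokine receptors included, 0, 10, 5, 15, 0 and 5 stayed called in the 6 fits without 1 library, and 2, Etv4 and Spry1, with the Y term.

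Among chemokine receptors 3 of 15 rose, and among integrins and adhesion genes 2 of 21, against 3.52% of all tested genes. Ccr7, which guides dendritic cells to lymph nodes, was at 0.108, 0.400 and 0.355 CPM in the controls and 14.6, 4.47 and 4.92 CPM in the floxed libraries (edgeR adjusted p 0.0309). Here floxed 1 was the highest library, whereas it was the lowest floxed library for Irf4, Clec10a, Clec9a and Batf3. Ccr2, Cx3cr1 and Itgax were described above. The 5 called genes of both lists stayed called in 0, 3, 1, 4, 0 and 2 cases in the 6 fits without 1 library, and 0 with the Y term.

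Of 15 genes of CDK inhibitors and D-type cyclins, which hold back or start the cell cycle, 3 rose and none fell. Of all tested genes, 3.52% rose and 3.05% fell. Ccnd2 (chromosome 6, 127125162 to 127152188) was at 3.34, 7.2 and 5.48 CPM in the controls and 130.3, 207 and 79.8 CPM in the floxed libraries (log2 fold change 4.7 ± 0.84, edgeR adjusted p 0.00664). Ccnd1 was at 5.01, 19 and 6.49 and 175, 177 and 81.3 CPM, with control 2 the highest control (log2 fold change 3.83 ± 1.01, edgeR adjusted p 0.0321). Both cyclins were lowest in floxed 4 among the floxed libraries. Cdkn2d, an inhibitor of the same kinases, rose from 46.3, 44.6 and 43.9 to 68.4, 105 and 93.1 CPM (edgeR adjusted p 0.0341). No gene of the 32 cell cycle genes was called, although 31 of them had a log2 fold change below 0, against 55.1% of all tested genes, with a median of -0.35. In control 3 the S-phase gene Rrm2, on chromosome 12, was at over 2 times the other controls, at 205, 204 and 467 and 154, 127 and 189 CPM (edgeR adjusted p 0.133). Of the lists of p53 targets, BCL2 family genes, MYC and ribosome biogenesis, oxidative phosphorylation, and Polycomb and DNA methylation, none held a call. Of all tested genes 6.57% were called.

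**Figure D3:**
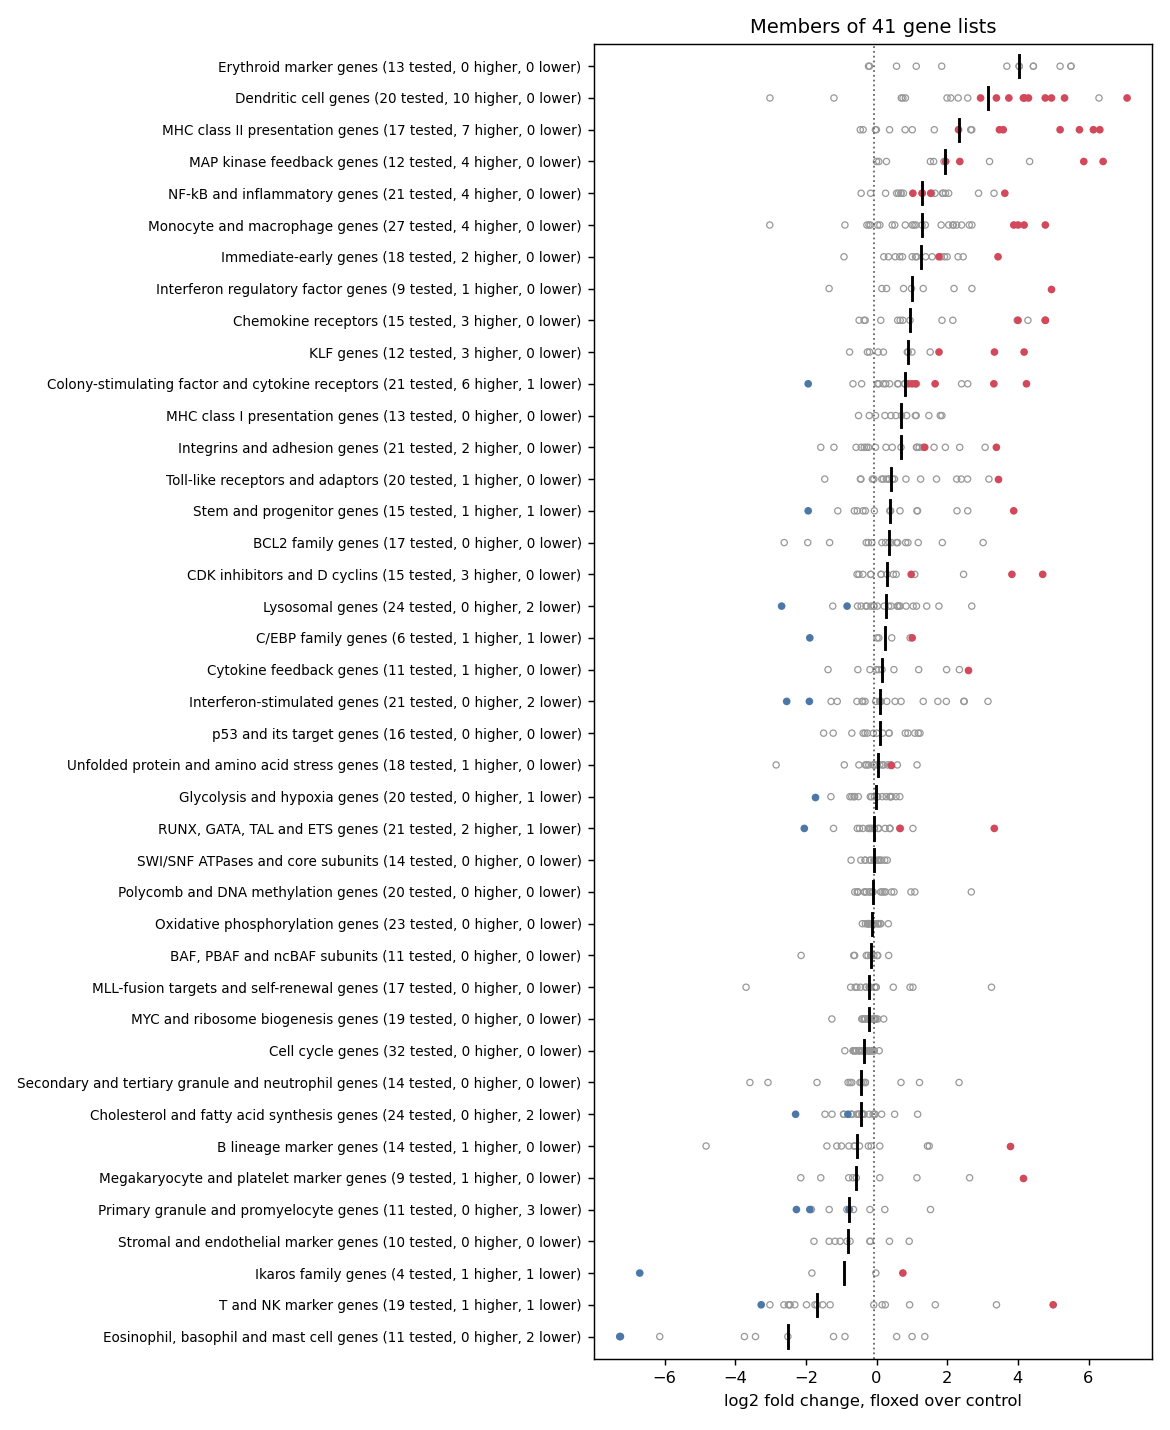
Log2 fold change, floxed over control (x axis), of every tested member of 41 gene lists (rows, with their counts), with called members in red or blue, others as open circles, the list median as a black bar and the median of all tested genes as a dotted line. Dendritic cell and MHC class II lists hold 10 and 7 genes called higher, while erythroid markers have the highest median, 4.04, with none called.

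On the lists of hypoxia, lipid synthesis, lysosome and protein stress genes, 1 or 2 genes each were called, of 18 to 24 tested, a share near the 6.57% of all tested genes. Vegfa, the vascular growth factor on the hypoxia list, was at 58.3, 56.4 and 78 CPM in the controls and 22.5, 10.3 and 24.5 CPM in the floxed libraries (edgeR adjusted p 0.0434), the single call of 20. Of 24 cholesterol and fatty acid synthesis genes, 21 had a log2 fold change below 0, against 55.1% of all tested genes. All 3 floxed libraries lay below every control for 15 of the 24, against 16.1% of all tested genes. By the test 2 fell. One of these 2 was Nsdhl, of the later steps of cholesterol synthesis, at 24.4, 23.9 and 25.7 and 14.5, 13.3 and 14.4 CPM (edgeR adjusted p 0.0174). The list's median was -0.45. Nsdhl, on the X chromosome, had almost no spread within either group. Of 24 lysosomal genes, Cd63 and Tpp1, a lysosomal peptidase, fell, with Tpp1 at 185, 159 and 182 and 91.5, 97.2 and 107 CPM (edgeR adjusted p 0.00574), while the list's median was 0.28. Herpud1, of the degradation of misfolded proteins, rose, at 84, 105 and 107 and 117, 153 and 123 CPM (edgeR adjusted p 0.0464), the single call of 18 protein stress genes. Cyclins and metabolic genes together gave 9 calls, of which 2, 5, 3, 6, 3 and 3 held in the 6 fits without 1 library, and 2, Ccnd2 and Cd63, with the Y term.

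MHC class I presentation genes gave no call among 13, against 6.57% of all tested genes. Their median log2 fold change was 0.71. The groups did not overlap for 8 of them, all higher, against 16.3% of all tested genes. Nlrc5, the coactivator of class I genes, was at 13.8, 11.4 and 11.9 CPM in the controls and 48.3, 47.1 and 34.5 CPM in the floxed libraries (edgeR adjusted p 0.0920). In other lists without a call, members with small p were the replication gene Mcm5 (459, 430.1 and 519 and 328, 226 and 363 CPM), the p53 target Pmaip1 (42.2, 49.1 and 87.5 and 118, 133 and 80.2 CPM) and the survival gene Mcl1 (229, 236 and 263 and 306, 501 and 481 CPM). None of these 3 passed (edgeR adjusted p 0.119, 0.145 and 0.0975).

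Markers of other cell types were low, and some moved with the groups. Erythroid genes had the highest list median, 4.04 over 13 genes with none called, and a sum of 6 erythroid markers was 1.78 to 3.45 CPM in the controls and 5.67 to 22.2 CPM in the floxed libraries. The haemoglobin gene Hba-a1 was at 0.108, 0 and 0 and 0.898, 1.06 and 3.72 CPM (edgeR adjusted p 0.209). It shares near-identical sequence with Hba-a2, which carries the same values, so neither can be read on its own. T and NK markers summed to 5.31 to 14.5 CPM in the controls and 2.92 to 4.68 CPM in the floxed libraries, with Ncr1 at or near 0. On the T and NK list of 19, Gzmb, granzyme B, fell, at 1.88, 4.06 and 1.88 and 0.189, 0.310 and 0.300 CPM (edgeR adjusted p 0.0300), while Cd28 rose, at 0.754, 5.83 and 0.913 and 52.9, 94.6 and 91.7 CPM (edgeR adjusted p 0.0409). The defining T cell gene Cd3e was at or below 0.420 CPM in the floxed libraries that had Cd28 above 50 CPM. Cd22, of the B list, rose from 2.02 to 28.1 CPM on average (edgeR adjusted p 0.0192), and Vwf, of the platelet list, from 1.26 to 22.4 CPM (edgeR adjusted p 0.0442). The B, platelet and T and NK lists had median log2 fold changes of -0.55, -0.57 and -1.69. Below 0 were 10 of 14, 5 of 9 and 13 of 19 of their genes, against 55.1% of all tested genes. They held 1, 1 and 2 calls, against 6.57% of all tested genes. On the T and NK list all 3 floxed libraries lay below every control for 11 of 19 genes, against 16.1% of all tested genes. They lay above every control for 3, against 16.3%. Megakaryocyte markers summed to 67.7, 113 and 7.40 CPM in the controls and 22.1, 24 and 22.9 CPM in the floxed libraries. Itga2b gave most of this sum in every library but control 3, where it was at 2.84 CPM and Gp1bb at 4.26 CPM. No stromal or endothelial gene was called. Of the 4 called marker genes, 0, 2, 0, 2, 0 and 0 stayed called in the 6 fits without 1 library, and 0 with the Y term.

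Chromosome 12 differed in 1 library. In control 3 the median log2 level of its 416 expressed genes, against the mean of the other controls, was 0.54, or 1.46-fold, and 79.8% of these genes were above 0. The other 18 autosomes of control 3 had medians of -0.10 to 0.06. Measured the same way, chromosome 12 was at 0.03, -0.01 and -0.01 in floxed 1, 3 and 4, and at -0.28 and -0.24 in controls 1 and 2, whose reference includes control 3. Along the chromosome the excess reached both ends but was uneven. In 17 blocks of neighbouring genes, 25 to a block and 16 in the last, medians ran from 0.09 to 0.83 and all were above 0. The lowest block, of median 0.09, lay between 69583761 and 72580213, and the blocks on its sides were at 0.42 and 0.83. In this lowest block 52% of genes were above 0, against 68% to 96% in the others. DNA was not measured, and copy number was not tested. Against the median of all 24 libraries, chromosome 12 was at 0.49 in control 3. The next highest was 0.25, in control 2 of the MxCre set titled A1b, and all other medians of an autosome in a library lay between -0.10 and 0.08.

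**Figure D4:**
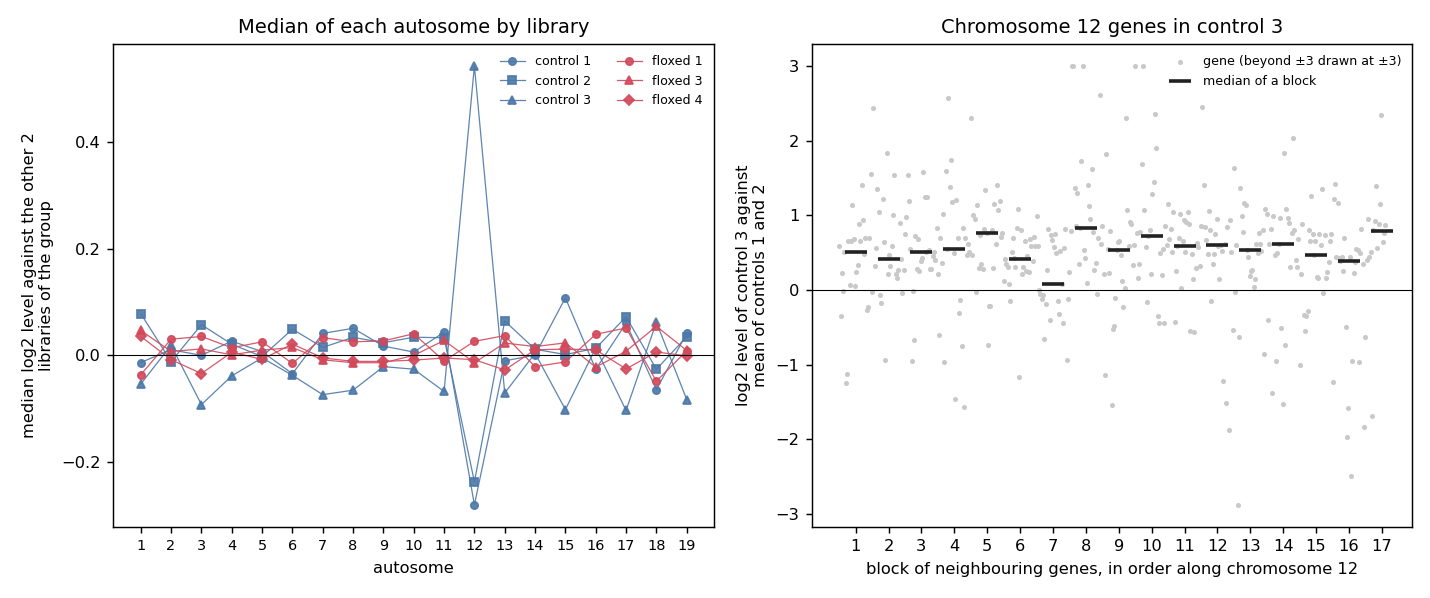
Left, median log2 level of the expressed genes of each autosome (x axis) in each of the 6 libraries against the other 2 libraries of its group (y axis), where control 3 is at 0.54 on chromosome 12. Right, genes of chromosome 12 in control 3 against the mean of controls 1 and 2, by block along the chromosome (x axis), with the block medians as bars, all of them above 0.

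The comparison of chromosome 12 genes was made with and without control 3. Of 463 tested, 6 rose and 24 fell, so that 6.48% were called, against 6.57% of all tested genes. Of all tested genes, 3.52% rose and 3.05% fell. The chromosome 12 genes had a median log2 fold change of -0.25, and 70.2% were below 0, against 55.1% of all tested genes. Without control 3 the numbers were 2 and 6, the median 0.04 and the share below 0 46.0%. Over all chromosomes, 170 genes were called higher and 233 lower in that fit. Of the 30 calls, 7 were made again without control 3, against 353 of the 926 calls over all tested genes (38.1%). Dio2, which activates thyroid hormone, was one of these, at 219, 121 and 69.8 CPM in the controls and 8.74, 1.59 and 11.3 CPM in the floxed libraries, with control 3 the lowest control (log2 fold change -4.25 and -4.53 without control 3, edgeR adjusted p 0.0132 and 0.0198). Fut8, which adds core fucose to glycans, and Ston2, an endocytic adaptor, were also lowest in control 3 and kept the call, with log2 fold changes of -2.01 and -3.39, and -2.27 and -3.76 without it (edgeR adjusted p 0.0199 and 0.0175 without it). Sipa1l1, a GTPase activator, was highest in control 3, at 131, 59.5 and 187 and 11.3, 30.4 and 34.4 CPM, and lost the call without it (log2 fold change -2.31 and -1.88 without control 3, edgeR adjusted p 0.0166 and 0.0675). Cep128 and Gemin2 were likewise highest in control 3 and lost it (edgeR adjusted p 0.0978 and 0.0830 without it). Of the genes that rose, Prkch, a protein kinase C, was at 2.69, 4.34 and 4.52 and 22.9, 33.8 and 36.9 CPM (log2 fold change 3.02, and 3.18 without control 3, edgeR adjusted p 0.0192 and 0.0567). Sdc1, the proteoglycan syndecan 1, was at 0.269, 1.03 and 2.69 and 1.42, 76.8 and 61.7 CPM, so that floxed 1 lay among the controls (edgeR adjusted p 0.0263), and it kept the call without control 3 (0.0469). Ckb, Dock4, Inf2 and Hdac9 rose by 3.49, 3.16, 2.07 and 3.09 on the log2 scale and lost the call without control 3, where the values were 4.09, 3.03, 1.84 and 2.82 (edgeR adjusted p 0.0540, 0.0988, 0.119 and 0.161). Of these 12 genes, the 6 that rose stayed called in 0, 3, 1, 5, 0 and 0 cases in the 6 fits without 1 library, and the 6 that fell in 0, 6, 3, 3, 0 and 3.

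Control 3 also carried genes that the other 5 libraries of the set had little of. A gene was counted for a library where its level there was at least 5 CPM and at least 8 times that of each of the other 5. Control 3 had 66 such genes, against 5 in control 1, 1 in control 2, 3 in floxed 1, 0 in floxed 3 and 1 in floxed 4, and 4 of the 66 were on chromosome 12. The highest was Tcf24, a transcription factor gene, at 5.39, 1.89 and 1558 CPM in the controls and 0.520, 1.64 and 0.961 CPM in the floxed libraries. Pcnx, on chromosome 12, was at 85.8, 62.3 and 818 and 55.2, 75 and 82 CPM. Neither gene was called (edgeR adjusted p 0.0730 and 0.103). Hormad2, a meiotic gene, was read almost only in control 1, at 35.5, 0.114 and 0.304 and 0.0945, 0 and 0 CPM, and was called as lower (edgeR adjusted p 0.0176), while without control 1 it had a log2 fold change of -2.50 and no call. In floxed 1 alone Plcd3, a phospholipase C, was high, at 0.862, 3.83 and 0.406 and 43.8, 1.28 and 0.901 CPM, and was not called (edgeR adjusted p 0.243). Over the 118 called genes that the naming rule picks, 25, 82, 59, 91, 26 and 54 stayed called in the 6 fits without 1 library, 27 moved by over 1.5-fold in at least 1 of these fits, and none changed sign.

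These genes were not particular to control 3 in the whole series. Of the 66, 64 reached 0.5 or more of its level in 1 or more of the 18 libraries outside the set. The numbers were 49 in control 2 of the MxCre set titled A1b, 46 and 44 in controls 2 and 1 of the VavCre Arid2 set, and in the MxCre set titled A2, 36 in floxed 2 and 24 in floxed 1. Tcf24 was at 1570 and 1628 CPM in controls 1 and 2 of the VavCre Arid2 set and 883 CPM in control 2 of the MxCre set titled A1b. Pcnx was at 504 and 283 CPM and 405 CPM in the same libraries, against 818 CPM in control 3. The libraries carry different genotypes and both kinds of Cre. By Pearson correlation of log2(CPM + 1) across genes, the library most like control 3 was control 1 of the VavCre Arid2 set (0.977), followed by a floxed library, number 2, of the MxCre set titled A2 (0.976). Controls 1 and 2 were most like each other (0.984), as were floxed 3 and 4 (0.992), and floxed 1 was about as like floxed 2 of the VavCre Arid2 set (0.977) as floxed 4 (0.976). These correlations share genes and annotation and are given as a description.

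**Figure D5:**
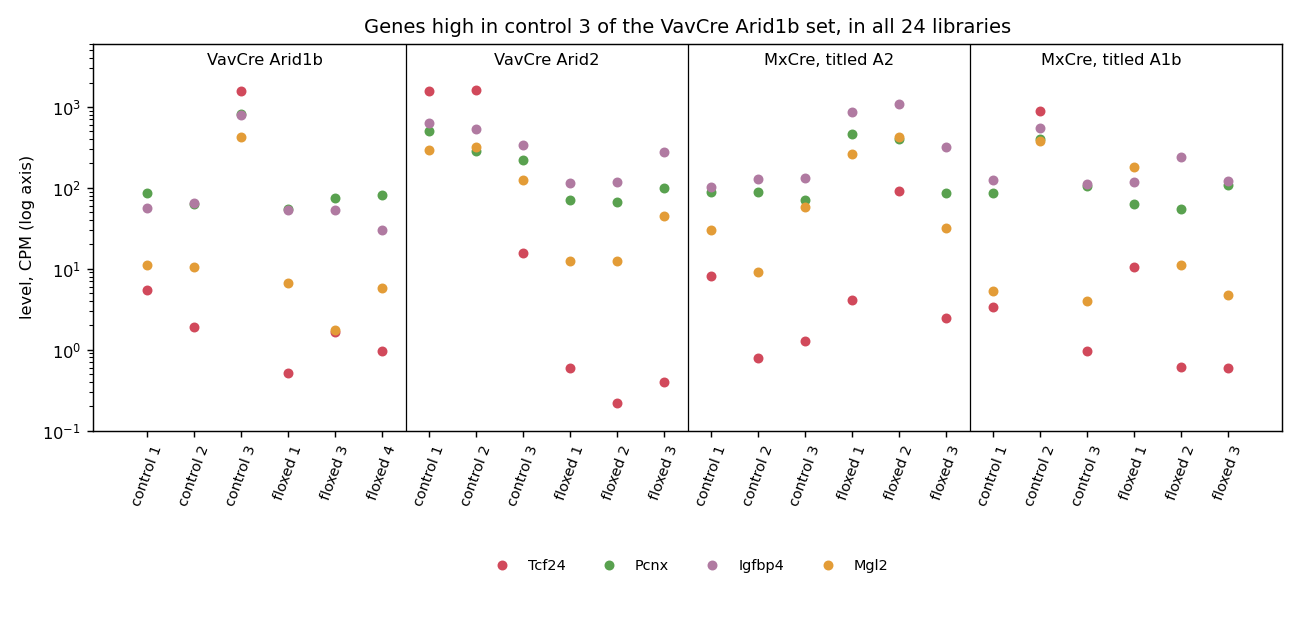
Level of 4 genes that are high in control 3 of the VavCre Arid1b set, in CPM on a log axis (y axis), in each of the 24 libraries (x axis) grouped by set. Tcf24 is above 800 CPM in 4 libraries of 3 sets, while Pcnx is at 465 and 403 CPM in floxed 1 and 2 of the MxCre set titled A2.

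The VavCre Arid2 set, with its own 3 controls and 3 floxed libraries, was used to test whether the changes of the 2 sets differed. Sex of the cells was not matched between them. The Y-linked gene Uty had log2 fold changes of -12.6 in the Arid1b set and 8.79 in the Arid2 set (edgeR adjusted p 0.0597 and 0.132). Xist changed by -0.07 in the Arid2 set. A difference between the contrasts therefore cannot be assigned to the alleles apart from sex. With the Y term, 4 genes differed. Of 14099 genes, 2 differed between the contrasts (0.0142%) by edgeR's test of the difference at an adjusted p under 0.05, and 1389 had an unadjusted p under 0.05. Evpl, which encodes the junction protein envoplakin, was at 5.71, 7.26 and 14.3 CPM in the Arid1b controls and 60.9, 38.9 and 36.7 CPM in the Arid1b floxed libraries, but at 26.8, 21.9 and 13.4 CPM and 0.703, 0.466 and 0.519 CPM in the Arid2 set. It thus rose in one set and fell in the other, a difference of 7.51 ± 0.80 (SE) on the log2 scale (edgeR adjusted p 0.000216). With the Y term the log2 fold change of Evpl in the Arid1b set was 1.29 and not called (edgeR adjusted p 0.306). The second gene, 5031425F14Rik, an uncharacterised transcript named because it completes the count, was at 2.21, 2.06 and 2.44 CPM and 4.68, 3.14 and 5.59 CPM in the Arid1b set. In the Arid2 set it was at 5.40, 6.06 and 8.66 CPM and 0.521, 0.274 and 0.610 CPM, a difference of 4.82 ± 0.63 (edgeR adjusted p 0.00252). The number of genes that differed was 12 without control 3 and 13 without floxed 1 of the Arid1b set, 4 without control 3 or without floxed 2 of the Arid2 set, and 2 or 3 without any 1 of the other libraries. For the genes described above the difference did not pass. The changes of Cd74 were 6.32 and -0.27 in the Arid1b and Arid2 sets, a difference of 6.59 ± 1.75 (edgeR adjusted p 0.163). Those of Cd63 were -2.69 and -1.71, a difference of -0.98 ± 0.44 (edgeR adjusted p 0.465), and Cd63 fell in both sets, the Arid2 set having 185 called genes (1.31%). Those of Ikzf2 were -6.7 and -0.55, a difference of -6.15 ± 2.04 (edgeR adjusted p 0.267).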

How the data were processed

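Polyadenylated RNA was sequenced from directional libraries, per the labels' protocols, and reads were aligned with STAR to mm10, per the submitters' processing notes. For the counting step, neither program, annotation nor strand setting is given in the sources used here, so overlapping and antisense genes are uncertain. The authors deposited raw read counts per gene symbol for 24046 genes, with 0 unused columns. Libraries were grouped by title.

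In edgeR 4.0.16 (R 4.3.3), filterByExpr (minimum count 10, total 15) kept 14099 genes. TMM scaling and a robust quasi-likelihood fit with 8 group means on all 24 libraries (16 residual degrees of freedom) gave each contrast. Gene positions are from RefSeq for GRCm38.p6, the build also called mm10. Named genes were Arid1b and Arid2; the 12 smallest p per direction at 5 CPM or more; the 12 highest levels per direction at 2-fold or more; up to 6 called members of each list, or the 2 with the smallest p; and the leading genes of the difference, of single libraries and of chromosome 12. Other genes, such as March1, Ifnar2, Flt3 and Cd34, were added after their values were seen. Some genes that the rule picks are not reported here, though the counts include them. Members, lists and rules were chosen with earlier results of these data known. Chromosome medians used log2(CPM + 0.5) of genes of at least 1 CPM on average. The fit was tested on simulated data. Alternatives were RLE scaling, DESeq2 1.42.0, limma 3.58.1 voom with sample weights, other filters, fewer libraries, the Y term (libraries with Kdm5d above 10 CPM) and a replicate block.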

Additional observations from a re-analysis of the deposited data

Results flagged for a closer look

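A pair of genes changed differently in the VavCre Arid1b and VavCre Arid2 sets by edgeR's test of the difference. Evpl had a difference of 7.51 on the log2 scale and 5031425F14Rik a difference of 4.82, both higher in Arid1b. In a library outside this comparison, control 2 of the MxCre set titled A1b, the median log2 level of chromosome 12 was 0.25 against all 24 libraries, with 78.4% of genes above 0.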

How the results depend on the processing

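The number of called genes depended on the fit more than on scaling. By DESeq2 the number was 1815, of which 1013 rose and 802 fell; by weighted voom it was 4203 (2103 and 2100). The 12 VavCre libraries alone gave 1902 (1121 and 781), and the fit without 2 MxCre libraries that stood apart 1717 (952 and 765). Of the 926 genes, DESeq2 shared 99.8% and voom 98.5%. The Y term left 101 (32 and 69). The replicate block left 65 (21 and 44) and changed calls of named genes in 92 of 118 cases; no label says that the numbers pair libraries, and the deviations of same-numbered ones correlated at -0.004 and -0.083. With no filter on low counts 619 were called, 279 of them lower. Leaving out 1 library of the set gave 62 to 734 genes, 17 to 466 higher and 30 to 404 lower, the extremes being without floxed 3, control 1 and control 2 and floxed 1. The difference from the VavCre Arid2 set gave 251 genes by DESeq2, 2494 by voom, 23 with the 12 VavCre libraries, 19 without the 2 MxCre libraries, 4 with the Y term, 1 with the replicate block, and 2 to 13 without 1 library; omissions in the Arid2 set were chosen after seeing the data. The cause of these shifts was not tested. RLE scaling called 908 genes, 894 of them among the 926. The chromosome 12 median of control 3 ran from 0.50 to 0.58 over 7 alternatives, 2 of them, with 1 reference control each, chosen after seeing the data.

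Among the reported genes that the naming rule picks, directions turned in 3 fits, none of a called gene: Xist with the Y term (-0.094), Tmlhe without control 2 (-6.46 to 0.32 over the omissions of 1 library) and Plcd3 without floxed 1 (-0.62 to 4.59). Genes given outside the rule that were not called also turned, among them Mpo (0.15) and Erg (-0.17) without control 3, and Cd34 (0.34) with the Y term. Of the 118 called genes that the rule picks, the call was lost for 3 under RLE, 30 with no filter, 16 with the 6 libraries alone and 95 with the Y term.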
